A study of Mus musculus with 4 samples.

Results

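The cells described here are Cd4 Cd8a double-positive T cells of the mouse small intestine. A cell belonged to them when it held at least 1 UMI (a counted mRNA molecule) of Cd4, at least 1 of Cd8a and 0 of Foxp3, the factor that defines regulatory T cells. Of 22534 cells kept, 449 met this rule. The members were chosen by their UMIs of Cd4, Cd8a and Foxp3, so the values of these 3 genes are given as a description and never tested. Cd8b1, the gene of the CD8 beta chain, was not used in the choice.

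The series holds 1 group: CD4 T cells from wild-type C57Bl/6 mice, measured in 4 libraries of Chromium 5′ chemistry. They came from the small intestine's lamina propria, a layer of connective tissue just beneath the epithelial cells, after removal of Peyer's patches, an EDTA wash and digestion with collagenase D and DNaseI. Sorting took living cells with CD45, CD3 and CD4 protein on the surface, and the labels name no gate on CD8. The labels give no age, and they do not say that each library held the cells of a single mouse. The p-values measure how far the difference between classes varied from library to library, and that spread may be technical. The double-positive cells were compared, within the same libraries, with 15176 Cd4 single-positive cells (Cd4 at least 1 UMI, Cd8a 0, Foxp3 0) and with 168 Cd8a single-positive cells (Cd4 0, Cd8a at least 1, Foxp3 0).

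CD4 and CD8 are the co-receptors with which T cells read MHC class II and class I molecules, and most mature T cells keep only one of them. CD8 on conventional killer T cells is a pair of an alpha and a beta chain (Cd8a and Cd8b1), whereas some T cells of the gut carry alpha chains only, which bind the MHC-like molecule TL on gut epithelium. In the small intestine, CD4 T cells can gain CD8 alpha chains together with a killing programme, and the factor Runx3 on the one side and ThPOK (gene Zbtb7b), which keeps CD4 T cells in the helper lineage, on the other are known to govern this choice.

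The 4 libraries held between 5384 and 5910 cells kept, with medians of 3685.5 to 4220 UMIs per cell, and any pair of libraries shared 34 to 51 cell barcodes. The median depth over all libraries was 3912 UMIs in double-positive, 4030 in Cd4 single-positive and 3602 in Cd8a single-positive cells. A doublet caller marked 29 of the 449 double-positive cells (6.46%) and 4.68% of Cd4 single-positive cells, and these cells were kept. Library 4 stood apart: it held 245 of the 449 double-positive cells. A second point touches many results: 13 double-positive cells (4, 3, 2 and 4 in libraries 1 to 4) held at least 3 UMIs summed over H2-Aa, H2-Ab1 and Siglech, genes of dendritic cells. Siglech, which marks plasmacytoid dendritic cells, was present in 7 of these 13 cells, and 8 of the 13 also held a UMI of a Cd3 gene. The summed level of the 11 genes on the myeloid and dendritic list was 338 to 1956 CPM (UMIs of a gene per 1000000 UMIs of the class in a library) in double-positive cells. It was 250.3 to 326 CPM in Cd4 single-positive cells, 127 such marked cells included, and 131 to 176 CPM in double-positive cells without those 13. The list holds the 3 genes that marked the cells, so a fall on leaving them out was fixed in advance. Results are therefore also given without every cell so marked (called "without dendritic-marked cells"), a step chosen after the data had been seen.

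The label of T cell held for nearly all members. A UMI of a Cd3 gene was found in 444 of the 449, on average 98.2% ± 1.44 (SD, n = 4 libraries), and without dendritic-marked cells in every member. A constant gene of the alpha-beta T cell receptor (Trac, Trbc1 or Trbc2) was found in 88.7% ± 4.75 of members and in 90.6% ± 1.97 of Cd4 single-positive cells. Trdc, the constant gene of the delta chain, was found in 2 members.

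Double-positive cells made up 1.24% of cells kept in library 1 (70 cells, exact binomial 95% interval 0.965 to 1.56%). The share was 1.17% in library 2 (69 cells, 0.910 to 1.48%) and 1.17% in library 3 (65 cells, 0.901 to 1.48%). In library 4 it was 4.55% (245 cells, 4.01 to 5.14%). Libraries 1 to 3 thus lay within each other's intervals, which cover counting error only, and library 4 lay outside them. The mean was 2.03% ± 1.68 over 4 libraries and 1.19% ± 0.040 without library 4. Where every cell was thinned to 2000 UMIs before the rule was applied, the shares were 0.543, 0.666, 0.597 and 2.80%, with library 4 again the highest. Asking for at least 2 Cd8a UMIs gave a mean of 1.38% ± 1.24.

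**Figure D1:**
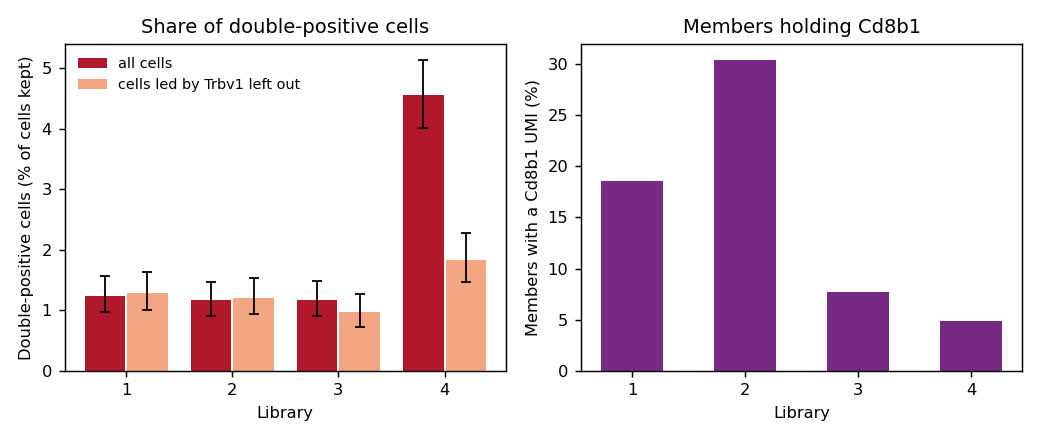
Left, double-positive cells as a percentage of cells kept in each library (bars, with exact binomial 95% intervals), for all cells and with cells led by the receptor gene Trbv1 left out; library 4 fell from 4.55 to 1.83% on leaving them out, while libraries 1 to 3 lay between 0.972 and 1.29%. Right, percentage of double-positive cells in each library that held at least 1 Cd8b1 UMI, from 4.90% in library 4 to 30.4% in library 2.

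Cd8a transcripts were few in each member. The median was 2 UMIs and the maximum 24; 145 members (32.3%) held a single Cd8a UMI and 102 held 2. As a measure of stray Cd8a UMIs, the share of cells with one was taken in other cells of the same libraries. Among Foxp3-positive cells it was 0.664, 0.943, 0.226 and 2.91% in libraries 1 to 4, at median depths of 4533 to 5591 UMIs. Among Cd4-positive, Foxp3-negative cells it was 1.76, 1.75, 1.72 and 6.26%, at median depths of 3764 to 4369 UMIs. The share was thus higher in each library among the cells from which members came, although they were the shallower ones in each. At 2000 UMIs per cell the shares were 0.224, 0.760, 0.233 and 1.32% among Foxp3-positive and 1.12, 1.31, 1.22 and 4.97% among Cd4-positive, Foxp3-negative cells. Among cells holding Il17a, the cytokine of Th17 cells, it was 0.422 to 1.45%. A Foxp3-positive cell may itself carry Cd8a, so these values bound stray signal only from above.

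Cd8b1 was detected in 51 of the 449 members, 13, 21, 5 and 12 in libraries 1 to 4. Of the members of each library these were 18.6, 30.4, 7.69 and 4.90%, with a mean of 15.4% ± 11.6. At 2000 UMIs per cell, Cd8b1 was found on average in 12.1% of members, 0.598% of Cd4 single-positive cells, 2.40% of Foxp3-positive cells and 20.1% of Cd8a single-positive cells. Cd8b1 thus marked a minority of the double-positive cells in every library and was rarer still in Cd4 single-positive cells, where 220 of 15176 held it. In CPM, Cd8b1 reached 106, 429, 117 and 53.1 in double-positive cells against 2.67 to 5.44 in Cd4 single-positive cells. With a log2 fold change of 5.14 ± 0.290 (SE; adjusted p = 6.6e-12) it headed the genes named by size, in the comparison described next. Cd8a and Cd8b1 are neighbours on mouse chromosome 6, at chr6:71373427-71379173 and chr6:71322788-71337494 (build mm10, both on the plus strand).

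All genes were then compared between double-positive and Cd4 single-positive cells, with UMIs summed per library and class, so that a library and not a cell was the replicate. The test was edgeR's quasi-likelihood test with the library as a block, and p-values were adjusted by Benjamini-Hochberg over all 11406 genes tested. Of these, 270 (2.37%) were higher in double-positive cells and 422 (3.7%) lower at an adjusted p under 0.05. Without dendritic-marked cells 221 (1.97%) of 11222 were higher and 442 (3.94%) lower, and 176 of the 270 and 395 of the 422 were called in both fits. These percentages are the background against which the counts of each gene list below are read. The fold changes of single genes below are log2 values ± SE.

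**Figure D2:**
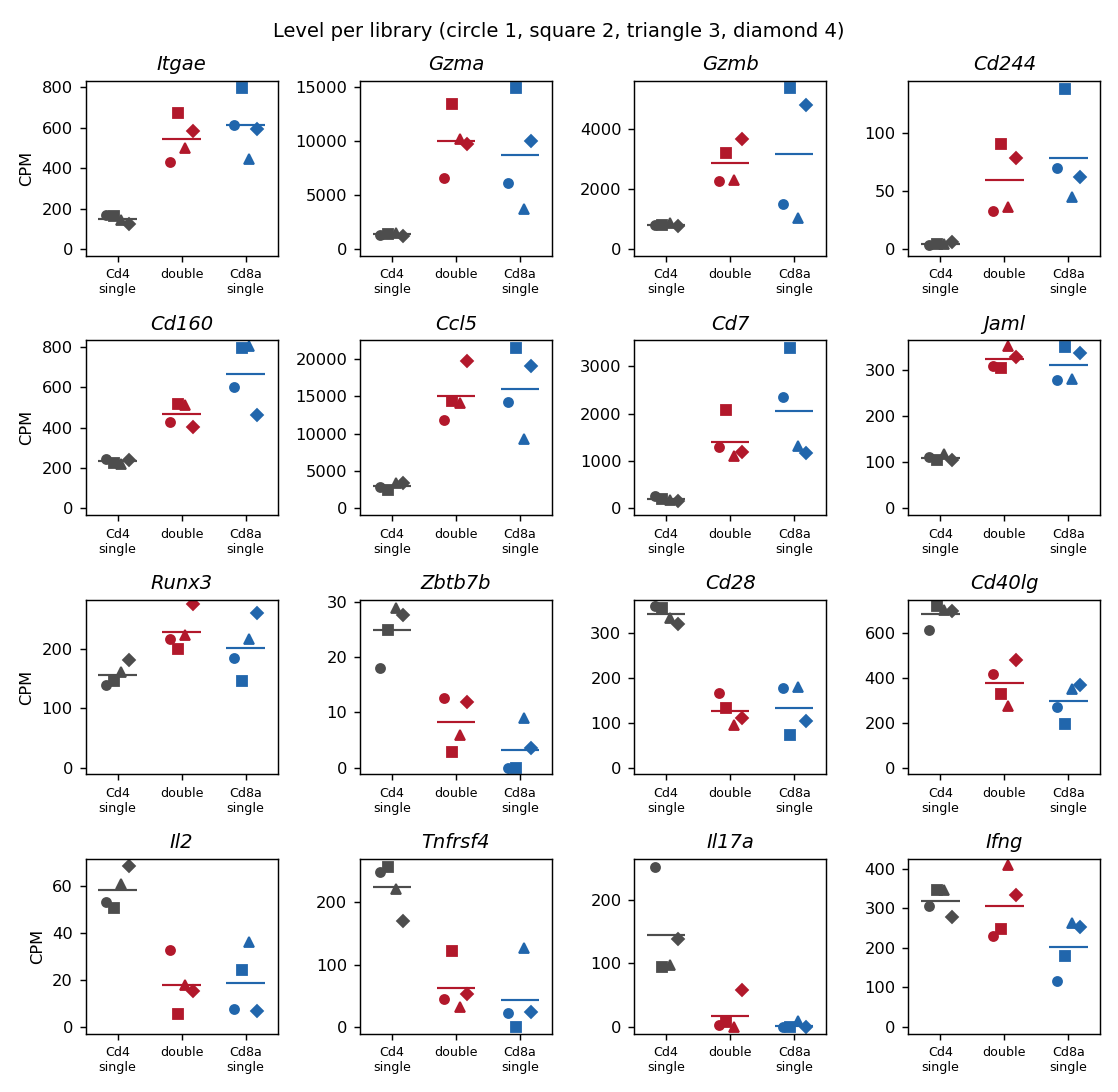
Level in CPM (vertical axes, linear from 0) of 16 genes in Cd4 single-positive, double-positive and Cd8a single-positive cells; each symbol is 1 library and each line the mean of 4. Itgae, Gzma, Gzmb, Cd244, Cd160, Ccl5, Cd7, Jaml and Runx3 were higher in double-positive than in Cd4 single-positive cells in every library, Zbtb7b, Cd28, Cd40lg, Il2, Tnfrsf4 and Il17a lower, and Ifng overlapped between them.

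The genes that go with the label were all higher in double-positive cells. They were chosen with earlier results of these data known, so their rise is a description and not a check of the label. Itgae encodes CD103, the integrin that binds E-cadherin on gut epithelium (chr11:73090583-73147446). It measured 428, 672, 499 and 585 CPM in double-positive cells of libraries 1 to 4 and 169, 162, 142 and 122 CPM in Cd4 single-positive cells, so that the groups did not overlap (1.83 ± 0.114, adjusted p = 3.2e-11). Gzma encodes granzyme A, a protease that killer cells release into their targets (chr13:113093825-113100981). It measured 6576, 13400, 10180 and 9743 CPM against 1293, 1411, 1476 and 1218 CPM (2.79 ± 0.096, adjusted p = 9.63e-16). Cd244 encodes 2B4, a receptor of NK cells and killer T cells (chr1:171559193-171609746). It measured 32.7, 90.3, 35.9 and 78.7 CPM against 3.21 to 5.71 CPM (3.72 ± 0.275, adjusted p = 8.16e-10). Each of these 3 genes was higher in double-positive cells in all 4 libraries and called under every alternative tried.

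The upstream sequences of Cd8a, which chose the cells and was not tested, and of some genes that rose are shown. Runx3, which rose as well, binds a short DNA motif. RefSeq promoter windows (build GRCm38.p6, the assembly behind mm10) were searched for the Runx core TGTGGT on both strands (ACCACA on the other); no other motif was searched. Of 23 genes looked up, 16 had an entry, and 11 of these held the motif in the 250 bases before a start. The 5 windows below end at the base before the start and read 5′ to 3′ along the gene's strand, with the motif in capitals. They are Cd8a (chr6:71373177-71373426, plus), Gzma (chr13:113100982-113101231, minus), Gzmb (chr14:56262335-56262584, minus), Cst7 (chr2:150570165-150570414, plus) and Jaml (chr9:45078933-45079182, plus).
Cd8a: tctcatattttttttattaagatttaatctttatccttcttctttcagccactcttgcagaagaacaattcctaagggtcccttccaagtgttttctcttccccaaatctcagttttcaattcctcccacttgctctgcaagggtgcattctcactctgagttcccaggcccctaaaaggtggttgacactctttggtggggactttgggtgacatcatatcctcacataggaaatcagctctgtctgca
Gzma: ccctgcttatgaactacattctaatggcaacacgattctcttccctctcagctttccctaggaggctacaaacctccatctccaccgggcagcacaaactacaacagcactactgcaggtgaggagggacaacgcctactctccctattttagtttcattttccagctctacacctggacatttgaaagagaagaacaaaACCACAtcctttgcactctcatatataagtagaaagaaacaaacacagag
Gzmb: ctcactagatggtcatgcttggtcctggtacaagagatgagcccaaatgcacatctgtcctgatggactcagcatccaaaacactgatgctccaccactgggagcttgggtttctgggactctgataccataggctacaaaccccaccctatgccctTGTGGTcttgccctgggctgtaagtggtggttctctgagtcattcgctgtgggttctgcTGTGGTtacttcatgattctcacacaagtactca
Cst7: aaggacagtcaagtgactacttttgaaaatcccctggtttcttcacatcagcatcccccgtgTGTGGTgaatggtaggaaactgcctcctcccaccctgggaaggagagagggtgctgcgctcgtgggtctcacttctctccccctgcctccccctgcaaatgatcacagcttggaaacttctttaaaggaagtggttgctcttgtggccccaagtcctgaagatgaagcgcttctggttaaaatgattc
Jaml: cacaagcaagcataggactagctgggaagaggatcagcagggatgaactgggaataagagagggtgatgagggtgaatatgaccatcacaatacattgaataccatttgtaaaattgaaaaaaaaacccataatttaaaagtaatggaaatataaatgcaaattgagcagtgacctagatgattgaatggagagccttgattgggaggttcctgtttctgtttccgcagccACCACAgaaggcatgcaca
The motif began 50 bases before the start in Gzma, 93 and 34 in Gzmb, 188 in Cst7 and 19 in Jaml, and these letters were not in the Cd8a window. Among all 32851 windows of this length, 4614 (14.0%) held it. Of the genes tested that had an entry, 13.5% of 8691 held it in at least 1 window, 20.6% of the 194 with higher and 17.5% of the 291 with lower expression in double-positive cells. Of the killing genes that rose, 7 had an entry and 5 of them held it (Gzma, Gzmb, Prf1, Nkg7 and Cst7). Zbtb7b, which fell, held the motif too, while Itga1, Plcg2, Scin and Cd244, which rose, did not. A match is a description of letters and not a binding site, and whether Runx3 acts on these genes was not tested.

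Among 15 lineage factors, 1 rose and 5 fell in double-positive cells (median log2 fold change -0.25, against -0.02 over all genes). Runx3, the factor of the CD8 lineage, measured 217, 201, 224 and 276 CPM against 139, 146, 162 and 181 CPM in Cd4 single-positive cells. It was higher in all 4 libraries (0.50 ± 0.095, adjusted p = 0.00108), though with cells thinned to 2000 UMIs the call was lost (0.46, adjusted p = 0.181). Zbtb7b, the gene of ThPOK, measured 12.6, 2.82, 5.98 and 11.98 CPM against 18.0, 25.0, 29.0 and 27.6 CPM. It was lower in all 4 libraries without overlap (-1.47 ± 0.304, adjusted p = 0.00247). Without cells led by Trbv1, described below, Zbtb7b had a value of -1.02 and an adjusted p of 0.0564. The other factors that fell were Gata3 (-0.67 ± 0.129, adjusted p = 0.00121; 0.198 without the library block), which serves CD4 T cell development and Th2 cells, and Tcf7 and Lef1, kept by naive and memory T cells. Lef1 measured 22.7, 2.82, 11.95 and 11.98 CPM against 29.6 to 38.3 CPM (-1.46 ± 0.267, adjusted p = 0.000684; 0.0915 at 2000 UMIs per cell). Tcf7 changed by -0.50 ± 0.114 (adjusted p = 0.00604), with an adjusted p of 0.0839 without library 4. Runx1 was called at -0.34 (adjusted p = 0.0395), but lost the call in the fit without any 1 of the 4 libraries (adjusted p 0.0776 to 0.255).

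Genes of killing were the list with the most members higher. Of 14 tested, 8 rose and none fell (median log2 fold change 0.60), and without dendritic-marked cells 10 rose. Granzyme B (Gzmb) measured 2276, 3202, 2309 and 3675 CPM against 758 to 872 CPM in Cd4 single-positive cells (1.76 ± 0.101, adjusted p = 9.36e-12). Gzmk, a granzyme of memory-type killer cells, measured 247, 186, 376 and 222 CPM against 91.0 to 137 CPM (1.05 ± 0.107, adjusted p = 2.3e-07). Perforin (Prf1), which opens the target's membrane, measured 35.3 to 48.8 CPM against 16.3 to 27.4 CPM (0.90 ± 0.185, adjusted p = 0.00224). The granule genes Nkg7, Cst7 and Ctsw rose by 0.90, 1.24 and 0.54. Tnfsf10, the gene of the death ligand TRAIL, rose by 0.66 ± 0.142 (adjusted p = 0.00385; 0.0717 without library 1). Of the others, Fasl, a further death ligand, measured 261 ± 24.6 CPM against 206 ± 21.6 CPM without overlap, and missed the threshold (0.31 ± 0.099, adjusted p = 0.0706). Without dendritic-marked cells it was called (0.36, adjusted p = 0.0206). Srgn, the granule's scaffold, measured 2177 ± 247 CPM against 2259 ± 339 CPM and overlapped.

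**Figure D3:**
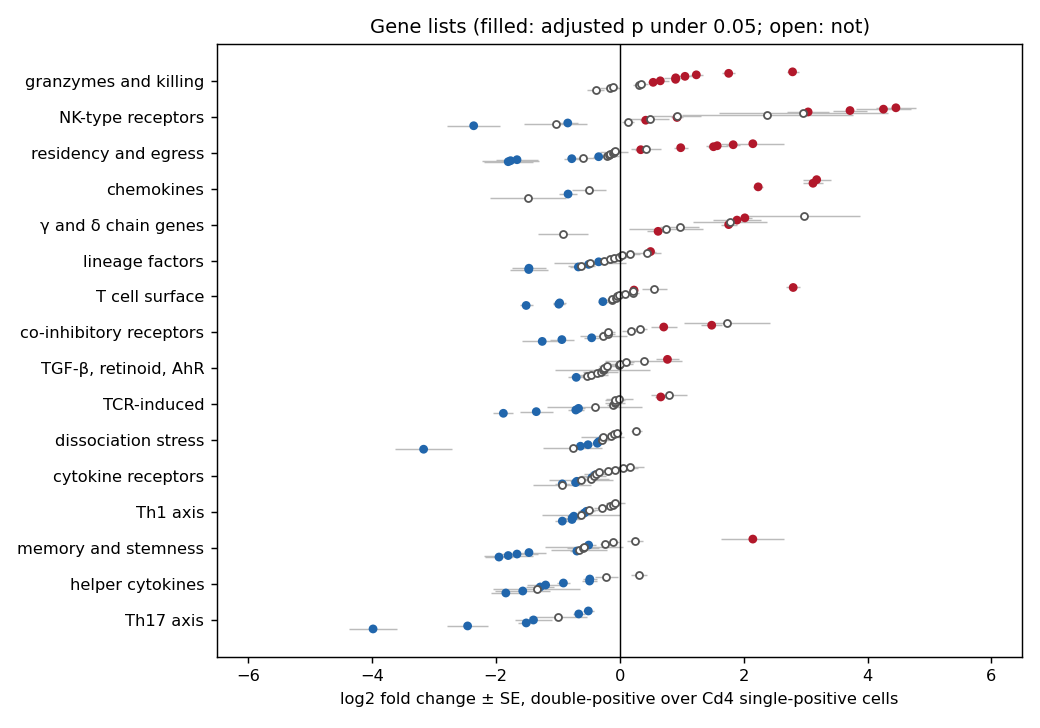
log2 fold change (horizontal axis) ± SE of the genes of 16 lists in double-positive over Cd4 single-positive cells, 1 point a gene and 1 row a list; filled points are genes at an adjusted p under 0.05 (edgeR), open points are not, and genes with at most 3 UMIs in a class are not drawn. Granzymes and killing held 8 genes that rose and none that fell, and the Th17 and helper cytokine rows held no gene that rose.

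Chemokines that draw other immune cells were split. Of 7 tested, Ccl3, Ccl4 and Ccl5 rose and Xcl1 fell. Ccl5, which attracts T cells and monocytes, measured 11780, 14440, 14130 and 19740 CPM against 2443 to 3436 CPM (2.24 ± 0.080, adjusted p = 1.01e-15). Ccl4 measured 1151, 1008, 1873 and 917 CPM against 95.3 to 201 CPM (3.12 ± 0.163, adjusted p = 1.98e-12), and Ccl3 rose by 3.18 ± 0.226 (adjusted p = 4.59e-10). None of these 3 inflammatory chemokines overlapped between the classes. Xcl1, the ligand of XCR1 on cross-presenting dendritic cells, measured 136 to 367 CPM against 311 to 412 CPM and overlapped (-0.83 ± 0.151, adjusted p = 0.000655; 0.0787 without the library block).

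Receptors best known from NK cells were mixed. Of 15 tested, 6 rose and 2 fell (median log2 fold change 0.93), and without dendritic-marked cells 5 of 14 rose. Cd160, which binds HVEM and MHC class I molecules, measured 428, 517, 514 and 405 CPM against 221 to 244 CPM (0.93 ± 0.093, adjusted p = 2.05e-07). Klrd1 encodes CD94, which pairs with NKG2 receptors. It measured 45.3, 215, 95.6 and 21.4 CPM against 1.75 to 4.71 CPM, and was highest in library 2 (4.46 ± 0.324, adjusted p = 6.85e-10; 4.17 without dendritic-marked cells). Its NKG2 partners were nearly absent: Klrc1 measured 0, 0, 0 and 1.71 CPM in double-positive cells, and Klrc2, Klrc3 and the NK cell receptor genes Ncr1 and Klra1 were at 0. The signalling adaptor gene Fcer1g measured 62.9, 192, 56.8 and 11.98 CPM against 4.59 to 10.5 CPM (3.04 ± 0.345, adjusted p = 1.27e-06). Without dendritic-marked cells it measured 0, 111, 0 and 0 CPM, from 2 cells of library 2, so that the other 3 libraries then lay below the Cd4 single-positive cells, although the test still called it (adjusted p = 0.00337). The adaptor gene Tyrobp measured 327, 268, 197 and 5.13 CPM against 6.67 to 8.55 CPM (4.26 ± 0.441, adjusted p = 2.99e-07). It stood highest where dendritic-marked cells were the largest part of the members, and without them it was too low to be tested. Genes of this family share similar sequences, so counts split among them are uncertain. Klrg1, a receptor of short-lived effector cells, measured 0, 16.9, 0 and 2.57 CPM against 13.2 to 32.9 CPM and fell (-2.36 ± 0.429, adjusted p = 0.000655), with library 2 inside the range of the Cd4 single-positive cells. Its adjusted p was 0.118 without the library block, 0.409 at 2000 UMIs per cell and 0.555 without cells holding markers of other types.

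Genes that hold T cells in tissue or let them leave moved in both directions. Of 19 tested, 6 rose and 5 fell. Besides Itgae, Itga1 (CD49a, a collagen receptor) measured 101, 161, 68.7 and 91.6 CPM against 28.6 to 35.7 CPM (1.57 ± 0.174, adjusted p = 8.3e-07). Jaml, an adhesion molecule that binds CXADR on epithelial cells, measured 310, 305, 352 and 330 CPM against 104 to 118 CPM (1.51 ± 0.092, adjusted p = 2.23e-11). Gpr18, a receptor known for retaining intraepithelial T cells, rose by 0.99 ± 0.114 (adjusted p = 1.83e-06). Each of these 4 genes lay higher in double-positive cells of every library. S1pr1 and Ccr7, which lead cells out of tissue and into lymph nodes, fell by 1.66 and 1.80 on the log2 scale; without library 4 their adjusted p-values were 0.0505 and 0.117. Zfp683, the gene of the residency factor Hobit, measured 2.57 to 5.03 CPM against 8.94 to 11.3 CPM (-1.76 ± 0.465, adjusted p = 0.0198; 0.261 without library 4 and 0.0801 without library 2). The general tissue markers Cd69 (635 ± 65.7 CPM against 641 ± 38.5 CPM) and Cxcr6 (484 ± 97.4 CPM against 517 ± 80.8 CPM) overlapped and were not called.

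Helper genes were lower. Of 12 helper cytokine genes tested, 9 fell and none rose (median log2 fold change -1.24, and the same with Il13 at its bound, given below); without dendritic-marked cells 8 fell. Cd40lg, the signal by which CD4 T cells help B cells and dendritic cells, measured 418, 327, 278 and 483 CPM against 614, 724, 704 and 702 CPM (-0.91 ± 0.107, adjusted p = 2.28e-06). Il2, the T cell growth factor, measured 32.7, 5.65, 17.9 and 15.4 CPM against 50.4 to 68.3 CPM (-1.84 ± 0.239, adjusted p = 9.56e-06). For the Th2 cytokine Il4, double-positive cells held 1 UMI and Cd4 single-positive cells 1167, a ratio of 35.9 (95% interval 6.43 to 1418, counting error only). Il13, another Th2 cytokine, had 0 UMIs against 334, at least 3.42-fold lower with a floor of 3 counts over all libraries. That bound covers counting error of UMIs only, and the 334 came from 66 cells, so it overstates what is known. Double-positive cells thus held fewer transcripts of helper genes in each of these cases. The classes overlapped for Il10 (37.6 ± 17.0 CPM against 41.0 ± 7.45 CPM, adjusted p = 0.689) and for Tnf (82.4 ± 8.68 CPM against 64.4 ± 5.26 CPM, adjusted p = 0.231), neither of which was called.

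Of the Th17 genes, 7 of 9 fell and none rose (median log2 fold change -1.39). Il17a, the leading Th17 cytokine, measured 2.52, 8.47, 0 and 58.2 CPM against 94.6 to 251 CPM (-2.45 ± 0.329, adjusted p = 1.41e-05). Library 4 was the highest among double-positive cells, but its Il17a UMIs came from 1 of 245 cells. Il22, a cytokine that acts on epithelium, measured 5.03, 5.65, 23.9 and 0 CPM against 44.6 to 185 CPM (-3.98 ± 0.383, adjusted p = 9.11e-08). For neither cytokine gene did the classes overlap.

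For the Th1 list, 6 of 12 genes fell and none rose, yet the summed levels of the leading Th1 genes did not differ beyond their spread. Ifng, interferon gamma itself, measured 229, 248, 409 and 333 CPM against 305, 346, 346 and 279 CPM (-0.11 ± 0.117, adjusted p = 0.765). Tbx21, the gene of the Th1 factor T-bet, measured 86.4 ± 26.5 CPM against 83.9 ± 8.21 CPM (-0.07 ± 0.158, adjusted p = 0.925). The genes that fell were receptors for Th1-directing signals and 1 further regulator: Il18r1 (-0.93 ± 0.125, adjusted p = 1.45e-05), Il18rap, Il12rb2, Cxcr3, Il27ra and Hopx. Cxcr3, a chemokine receptor of Th1 cells, measured 146, 96.0, 161 and 175 CPM against 209 to 259 CPM.

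On the T cell surface, Cd7 rose and co-stimulatory receptors fell. Of 15 surface genes 2 rose and 4 fell. Cd7, an early T and NK cell antigen, measured 1292, 2081, 1096 and 1183 CPM against 155 to 257 CPM (2.80 ± 0.114, adjusted p = 1.41e-14). Cd28, the main co-stimulatory receptor, measured 166, 133, 95.6 and 111 CPM against 321 to 361 CPM (-1.51 ± 0.107, adjusted p = 4.59e-10). Icos, a related receptor (-0.98 ± 0.094), and Cd2, an adhesion receptor (-0.97 ± 0.106), fell as well. These 4 genes did not overlap between the classes. Receptor signalling genes were close to equal: Lck measured 889 ± 52.0 CPM against 866 ± 22.1 CPM, and Lat 1064 ± 53.7 CPM against 1120 ± 33.0 CPM, with neither called.

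Of 11 co-inhibitory receptors, 2 rose and 3 fell. Lag3, which binds MHC class II, measured 101, 201, 74.7 and 64.2 CPM against 31.2 to 41.2 CPM (1.49 ± 0.170, adjusted p = 1.43e-06). Pdcd1 (PD-1) measured 17.6, 59.3, 26.9 and 24.8 CPM against 41.6 to 69.4 CPM and overlapped, because library 2 lay within the range of the Cd4 single-positive cells (-0.93 ± 0.189, adjusted p = 0.00197; 0.0538 without library 4). Btla fell by 1.25 and Ctla4 by 0.45 on the log2 scale, but for both the call was lost without 1 of the libraries (Btla without library 1, adjusted p = 0.113, and without library 4, 0.102; Ctla4 without library 2, 0.295, and without library 3, 0.0504). The direction among inhibitory receptors was thus not shared.

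Receptors for cytokines fell or did not pass the test: 5 of 16 fell and none rose (median log2 fold change -0.43). Il7r, which carries survival signals, measured 347, 234, 272 and 468 CPM against 436 to 561 CPM (-0.69 ± 0.106, adjusted p = 8.34e-05; 0.0681 without the library block). Ifngr1 measured 441, 364, 367 and 375 CPM against 565 to 639 CPM (-0.71 ± 0.082, adjusted p = 1.66e-06). Among 14 genes of TGF-β, retinoid and aryl hydrocarbon receptor signalling, all pathways known to shape gut T cells, 1 rose (Tgfbr3, with an adjusted p of 0.0674 without library 4) and 1 fell (Tiparp). Tgfbr2 measured 170 ± 15.4 CPM against 198 ± 7.98 CPM and Ahr 93.4 ± 9.99 CPM against 103 ± 13.9 CPM, neither called.

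Genes of memory and stemness fell in 6 of 14 cases and rose in 1, which was not called without dendritic-marked cells. Slamf6, a marker of stem-like T cells, measured 17.6, 19.8, 8.96 and 11.1 CPM against 46.0 to 56.5 CPM (-1.95 ± 0.229, adjusted p = 2.18e-06). Of 12 genes induced by receptor signalling, 1 rose and 4 fell. Nr4a2 rose (456, 313, 365 and 260.1 CPM against 178 to 237 CPM; 0.66 ± 0.099, adjusted p = 6.22e-05), while its relatives Nr4a1 and Nr4a3 fell by 0.66 and 0.71 on the log2 scale (for Nr4a3, adjusted p = 0.152 without the library block). Tnfrsf4 (OX40), a co-stimulatory receptor of activated CD4 T cells, measured 45.3, 121, 32.9 and 53.1 CPM against 171 to 257 CPM (-1.88 ± 0.161, adjusted p = 1.27e-08). Of 14 genes that tissue digestion can induce, 6 fell and none rose, among them Junb and Dusp1 (-0.51 and -0.63), and the other 8 did not pass the test. Without dendritic-marked cells 6 fell and Jun was called higher (0.31, adjusted p = 0.044).

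Gamma chain genes of the T cell receptor were higher in these cells, although they held alpha-beta constant genes. Of 10 genes of the gamma and delta chains tested, 4 rose and none fell, and without dendritic-marked cells 7 rose. Tcrg-C2 measured 166, 181, 218 and 292 CPM against 37.3 to 62.7 CPM (2.02 ± 0.111, adjusted p = 4.08e-12). Tcrg-C4 measured 103, 237, 167 and 196 CPM against 38.9 to 57.6 CPM (1.76 ± 0.129, adjusted p = 7.18e-10). The delta constant gene Trdc had 2 UMIs in all double-positive cells and 148 in the far more numerous Cd4 single-positive cells. After scaling for the size of the classes it was 2.28-fold lower in double-positive cells. The interval, 0.619 to 18.96 and for counting error only, did not exclude equality. The mean share of cells holding Trdc was similar, 0.46% ± 0.67 (SD) of double-positive and 0.40% ± 0.35 of Cd4 single-positive cells. Some gamma constant genes are near-identical copies, so the counts of those cannot be told apart with certainty.

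Markers of other cell types moved with the class as follows, and their part in the results was not tested unless values without the cells are given. Of 10 myeloid and dendritic genes tested, 6 were higher, and 1 of 7 was without dendritic-marked cells. Clec9a, Siglech and Flt3 were then at 0, though Siglech was among the genes that marked those cells. Of the 7 B and plasma cell genes, 3 were at 0, Cd79a and Ms4a1 among them, in double-positive cells, and the summed level was 22.6 to 38.8 CPM against 12.6 to 735 CPM in Cd4 single-positive cells. Jchain, the joining chain of the antibodies that plasma cells secrete, measured 5.34, 412, 65.8 and 176 CPM in Cd4 single-positive cells and at most 5.03 CPM in double-positive cells. Epithelial genes summed to 8.56 to 35.3 CPM against 13.8 to 18.7 CPM, with none of 4 called. Of 10 cycling genes, Top2a was called higher (145 ± 45.8 CPM against 84.9 ± 10.1 CPM; 0.64 ± 0.155, adjusted p = 0.0102).

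The genes with the highest fold changes after Cd8b1, by a rule that asks for at least 20 CPM in 1 class and the same direction in all 4 libraries, were Pld4, Heyl, Klrd1, Scin, Ly86, Mpeg1, Plcg2, Cd244 and Ccl3. Pld4, Ly86 and Mpeg1, genes of plasmacytoid dendritic and myeloid cells, fell under the filter on low counts once dendritic-marked cells were left out. Heyl, a transcription factor of the Notch pathway, measured 7.55, 48.0, 14.9 and 11.98 CPM against 0.428 to 0.826 CPM (4.56 ± 0.606, adjusted p = 1.27e-05). Scin, an actin-severing protein, measured 7.55, 33.9, 20.9 and 69.3 CPM against 0.243 to 3.68 CPM (4.41 ± 0.425, adjusted p = 9.11e-08). Plcg2, a phospholipase of immune receptor signalling, measured 15.1, 39.5, 32.9 and 27.4 CPM against 1.41 to 2.53 CPM (3.79 ± 0.434, adjusted p = 1.43e-06). Without dendritic-marked cells these 3 values were 4.67, 4.45 and 3.72. At the other end stood Jchain, Il22, Atf3, Ccr4, Penk, Epas1, Il17a, Klrg1, Ifitm2 and Calca, all called without dendritic-marked cells too. Of these, Jchain (adjusted p = 0.0965) and Atf3 (0.0524) lost the call without the library block, and Calca without library 4 (0.0520). Ccr4, a chemokine receptor of Th2 and skin-homing cells, measured 5.65 to 9.41 CPM against 46.2 to 66.4 CPM (-2.85 ± 0.246, adjusted p = 1.35e-08). Penk, the gene of the opioid precursor proenkephalin, measured 0, 39.5, 2.99 and 4.28 CPM against 32.6 to 68.1 CPM (-2.73 ± 0.362, adjusted p = 1.25e-05; -0.17 and 0.937 at 2000 UMIs per cell).

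Single cells were next scored for how many of Itgae, Gzma, Gzmb and Cd160 they held after thinning to 2000 UMIs. On average 58.4% ± 13.7 of double-positive cells held at least 3 of the 4, from 45.6% in library 1 to 72.2% in library 4. Among Cd4 single-positive cells this was 12.7% ± 0.778, and among Foxp3-positive cells 18.3% ± 4.84. None of the 4 was found in 5.47% ± 3.34 of double-positive and 35.8% ± 1.63 of Cd4 single-positive cells. The libraries of these classes did not overlap. All 4 genes were held by 19.6% ± 4.26 of double-positive cells, and in libraries 1 and 3 the cells with at least 3 were 45.6 and 47.7%. The 4 genes were chosen with their higher level in double-positive cells known, so these shares are a description. Cd8a single-positive cells held at least 3 in 50.7% ± 16.3, and their libraries overlapped with those of the double-positive cells.

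Cells just inside and just outside the rule were set side by side, and members were split by their Cd8a UMIs, without dendritic-marked cells and with no test. With 0 Cd8a UMIs (outside), Gzma measured 1306, 1416, 1488 and 1228 CPM in libraries 1 to 4. With a single Cd8a UMI (inside) it measured 6066, 7635, 8649 and 6985 CPM, and with 4 or more 8531, 20400, 17780 and 13090 CPM. Itgae measured 123 to 170 CPM with 0 UMIs, 428 to 886 CPM with 1 and 488 to 768 CPM with 4 or more. For both genes the cells with 1 Cd8a UMI lay above those with 0 in every library, while Itgae overlapped between cells with 1 and with 4 or more. Cd8b1 behaved otherwise: it measured 21.04, 0, 0 and 6.25 CPM with 1 Cd8a UMI and 223, 634, 110 and 114 CPM with 4 or more. Cd40lg measured 614 to 726 CPM with 0 Cd8a UMIs, 240.0 to 531 CPM with 1 and 175 to 392 CPM with 4 or more. Zbtb7b measured 18.2 to 28.9 CPM with 0, 0 to 28.1 CPM with 1, and 0, 0, 0 and 6.84 CPM with 4 or more, the last from 3 UMIs in all. Members with 4 or more Cd8a UMIs were also deeper, with medians averaging 4553 UMIs against 3686 with a single one.

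**Figure D4:**
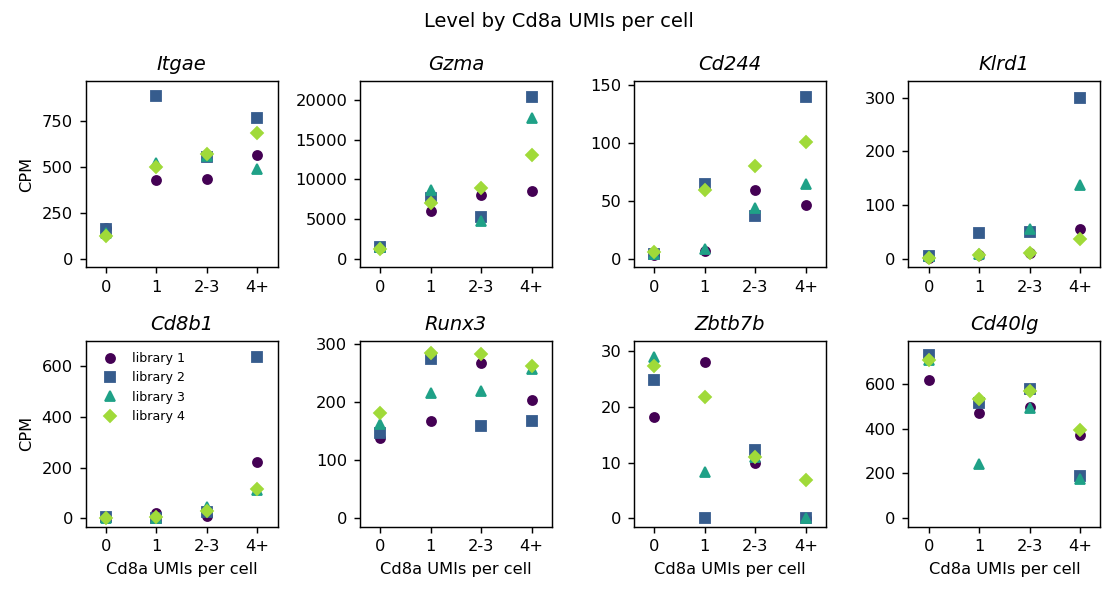
Level in CPM (vertical axes) of 8 genes in cells with 0, 1, 2 to 3 and 4 or more Cd8a UMIs (horizontal axis), 1 symbol a library, without dendritic-marked cells; cells with 0 are Cd4 single-positive. Gzma stepped up from at most 1488 CPM with 0 to at least 6066 CPM with 1 Cd8a UMI, Cd8b1 reached 110 to 634 CPM with 4 or more, and Zbtb7b was at 0 there in libraries 1 to 3.

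Variable genes of the T cell receptor beta chain differed between the libraries. Each cell was given the Trbv gene, of 35 measured, that had the most UMIs in it, where 1 gene led. In library 4, Trbv1 (chr6:40891229-40891885) led in 164 of 233 double-positive cells (70.4%) and in 548 of 3431 Cd4 single-positive cells (15.97%). In library 2, Trbv16 (chr6:41151740-41152230) led in 23 of 64 double-positive cells (35.9%) and 17.3% of Cd4 single-positive cells. In libraries 1 and 3 the most frequent gene led in 25.0% (Trbv19) and 22.6% (Trbv1 and Trbv19 alike) of double-positive cells. The leading gene was thus not the same in all libraries, although Trbv1 and Trbv19 each came first in more than 1. In libraries 1, 2 and 4 it was also the most frequent gene in Cd4 single-positive cells. In each library the leading share was above the highest share of any Trbv gene in Cd4 single-positive cells (14.6 to 17.3%). In libraries 1 to 3 it rested on only 62 to 64 double-positive cells, and the difference was not tested. No receptor sequences were analysed here, so cells that share a Trbv gene are not shown to be of 1 clone.

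**Figure D5:**
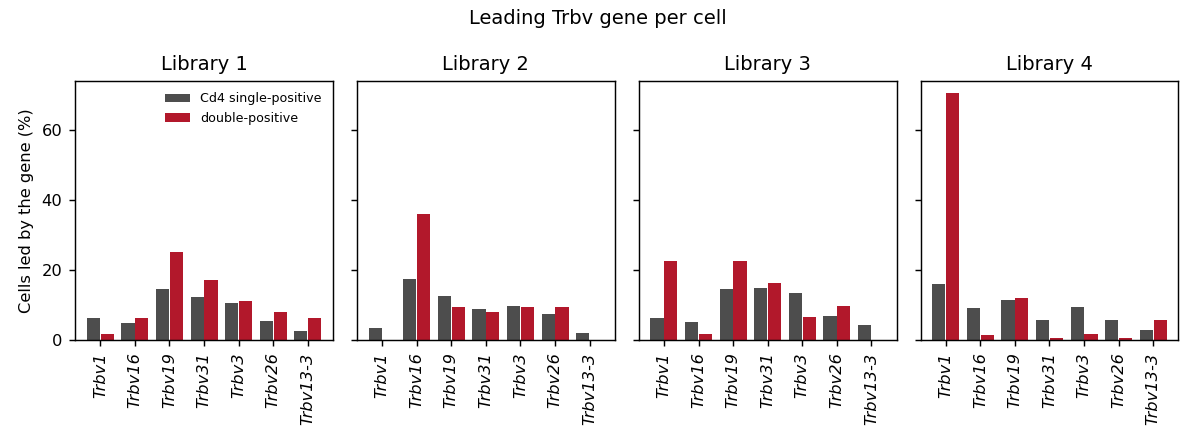
Percentage of cells (vertical axis) in which each of 7 Trbv genes had the most UMIs, for Cd4 single-positive and double-positive cells of each library. Trbv1 led in 70.4% of double-positive cells of library 4 and Trbv16 in 35.9% of those of library 2.

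Much of the excess of double-positive cells in library 4 lay with Trbv1. Of Cd4-positive, Foxp3-negative cells led by Trbv1, 0.442, 0, 6.22 and 23.0% were double-positive in libraries 1 to 4 (in library 2, 0 of 118). Of those led by another Trbv gene, 1.80, 1.82, 1.46 and 2.34% were. With Trbv1-led cells left out, an alternative chosen after the data had been seen, the double-positive share was 1.29, 1.21, 0.972 and 1.83%, with a mean of 1.33% ± 0.364 and library 4 still the highest. In library 4, 129 of 164 Trbv1-led double-positive cells (78.7%) held no UMI of any Trav gene, against 18.5% of its other double-positive cells and 56.2% of its Trbv1-led Cd4 single-positive cells. These cells still carried the killing genes: Gzma measured 9783 CPM in them and 9679 CPM in the other double-positive cells of library 4, and Gzmb 4471 and 2380 CPM. Cd8b1 measured 18.0 CPM in the Trbv1-led and 110 CPM in the other cells, and Zbtb7b 4.14 and 24.7 CPM. These values come from 1 library and have no replicate check.

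The 51 members with Cd8b1 were compared with the 398 without. Of 3643 genes tested, 35 (0.961%) were higher and 25 (0.686%) lower. Without dendritic-marked cells, 4 of 3442 (0.116%) were higher and 17 (0.494%) lower. Of the 51 Cd8b1-positive members 7 were dendritic-marked, and of the 398 others 6. Klk1 had the largest fold of all called genes (8.37 ± 0.423). It measured 1015, 833, 1400 and 0 CPM in Cd8b1-positive members against 6.52, 0, 0 and 0 CPM in the others. Among genes with the same direction in all 4 libraries, named by the rule given above, the highest folds were those of 5 genes. They were Irf8 and Bst2, both known from plasmacytoid dendritic cells, with Plac8, Unc93b1 and Pltp, and none of the 5 was called without the marked cells. The 4 called without them were receptor genes (Tcrg-V7, Trbv15, Trbv13-3 and Trav7-5). Tcrg-V7 rested on library 2, with 2600 CPM there, 44.1 in library 1 and 0 in the others.

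Of the 25 lower genes, 17 were called without the marked cells too, and killing genes were among them. Gzmb measured 353, 2070, 576 and 1135 CPM in Cd8b1-positive members against 2844, 3773, 2521 and 3862 CPM in Cd8b1-negative ones, lower in all 4 libraries without overlap (-1.78 ± 0.218, adjusted p = 0.00105; -1.50 without marked cells, adjusted p = 7.4e-08). Gzma measured 3542, 9995, 4034 and 9490 CPM against 7473, 15120, 10940 and 9762 CPM (-0.73 ± 0.143, adjusted p = 0.0134; -0.44 without marked cells). Cd40lg (-1.07 ± 0.245, adjusted p = 0.0409) and Cd5, a damper of receptor signals (-1.05 ± 0.200, adjusted p = 0.0125), were lower too. Of 8 cycling genes, 5 fell and none rose. Top2a, which untangles replicated DNA, measured 33.1, 16.8, 27.4 and 0 CPM against 110 to 263 CPM (-3.23 ± 0.453, adjusted p = 0.00151). Birc5 and Ube2c, genes of mitosis, had 0 UMIs in Cd8b1-positive members, at least 7.89-fold and 8.51-fold lower with a floor of 3 counts over all libraries. Both bounds cover counting error of UMIs only and not the small number of cells. For Itgae, Cd244 and Runx3 no difference was called: Itgae measured 397 ± 167 CPM against 580.5 ± 130.2 CPM (adjusted p = 0.413), Cd244 61.8 ± 32.6 CPM against 57.6 ± 28.5 CPM (adjusted p = 0.946) and Runx3 223 ± 61.9 CPM against 232 ± 32.3 CPM (adjusted p = 0.995). The leading Trbv genes differed as well. In library 4, Trbv1 led in 163 of 222 Cd8b1-negative and 1 of 11 Cd8b1-positive members with a leading gene. In library 2, Trbv16 led in 9 of 45 and 14 of 19. The part of these receptor groups in the differences was not tested. Cd8b1-positive members were deeper in all libraries (medians of 4181.5 to 7818 UMIs against 3623.5 to 4402), and library 3 gave only 5 of them. With cells thinned to 2000 UMIs, which left no such cell in library 3, 0 genes were called in either direction, so every call of this comparison was lost, and without the library block 1 gene was higher and 3 lower.

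Double-positive cells and Cd8a single-positive cells differed in few genes. Of 5413 tested, 5 (0.0924%) were higher in double-positive cells and 0 (0.0%) lower in edgeR's test, with 129 and 100 at an unadjusted p under 0.05; DESeq2 called 1 higher and 0 lower. The 5 were Cd74, H2-Eb1, H2-Ab1, H2-Aa and Klk1, of which the first 4 serve MHC class II presentation. Without dendritic-marked cells, 0 of 5211 (0.0%) were higher (125 at an unadjusted p under 0.05) and 2 (0.0384%) lower, Cd8b1 (-1.12, adjusted p = 0.0472) and Tyrobp (-3.08, adjusted p = 0.0488). The label genes measured alike: Itgae 546 ± 106 CPM in double-positive and 611 ± 145 CPM in Cd8a single-positive cells (-0.17 ± 0.124), Gzma 9976 ± 2792 and 8667 ± 4864 CPM (0.30 ± 0.180), and Cd244 59.4 ± 29.4 and 78.9 ± 40.8 CPM (-0.30 ± 0.276). The libraries held 27 to 75 Cd8a single-positive cells each, and what size of difference could be detected with so few is not reported here. Cells sorted on CD4 protein that held no Cd4 UMI were common (5007 cells held none of Cd4, Cd8a and Foxp3), so the absence of a Cd4 UMI does not show the absence of CD4. In library 4 Trbv1 led in 37 of 68 Cd8a single-positive cells (54.4%), and in library 2 Trbv16 led in 17 of 34, the same genes that led in the double-positive cells of these libraries.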

How the data were processed

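Cells were measured by Chromium 5′ single-cell RNA sequencing in 4 libraries of 1 group. The authors made the count matrices with Cell Ranger 3.0.2 on mm10, per the submitters' processing notes; the deposited values are UMI counts per gene and barcode, 23918884 to 28783972 per library. Barcodes with at least 500 genes, 1000 UMIs and at most 10% mitochondrial UMIs were kept. Counts were summed per library and class, genes passed edgeR's filterByExpr, and edgeR 4.0.16 (TMM, quasi-likelihood test, library as block, Benjamini-Hochberg adjusted p under 0.05) was run in R 4.3.3. The block pairs classes because they come from the same library. Cd4, Cd8a and Foxp3 (and Cd8b1 where it split the members) were not tested. DESeq2 1.42.0, other scalings and cell selections, and leaving out each library were alternatives. Scripts were tested on simulated data. Exact intervals cover counting error only.

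Members and gene lists were chosen with earlier results of these data known. Genes were named by rule: the 10 highest and 10 lowest log2 fold changes past the threshold with the same direction in 4 libraries and at least 20 CPM in 1 class, leaving out predicted, receptor, immunoglobulin, ribosomal and mitochondrial genes; up to 4 of each list by adjusted p; and all of the lineage, NK receptor, residency and killing lists. Some genes are not reported here. Other genes named beside them (Lck, Lat, Tgfbr2, Ahr, Fasl, Srgn, Il10, Tnf and the like) come from the same lists. For the comparisons with Cd8b1-negative and Cd8a single-positive cells, 5 each were named. The genes shown by Cd8a UMIs and by Trbv1 were chosen after their values were seen.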

Additional observations from a re-analysis of the deposited data

Results flagged for a closer look

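In each group of 4 libraries, the highest or lowest library was compared with the rest by Dixon's ratio of gap to range, against its 95% critical value. Of 214 groups, 18 passed, where chance passes about 1 in 20.

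The share of double-positive cells stood out in library 4 (4.551%). Among double-positive cells, the gene levels that stood apart in library 2 were high for Cd8b1 (429.1 CPM), Klrg1 (16.94 CPM), Tnfrsf9 (104.5 CPM), a co-stimulatory receptor, and Penk (39.53 CPM), and low for Il12rb2 (79.05 CPM). In library 1 they were high for Zfp683 (5.035 CPM), Ifngr1 (440.6 CPM), Il4 (2.518 CPM) and Il17f (2.518 CPM), the last 2 being 1 UMI each. Library 3 was high for Il21 (26.89 CPM), a helper cytokine, and library 4 for Il17a (58.19 CPM, from 1 cell) and Igha (0.8557 CPM, 1 UMI).

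Among Cd4 single-positive cells, library 1 was high for Tcf7 (146.7 CPM) and S1pr1 (25.16 CPM) and low for Nkg7 (846.3 CPM) and Penk (32.59 CPM), and library 2 was high for Trdc (5.885 CPM).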

How the results depend on the processing

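Of 117 named genes, 85 were called, and 50 of these kept their call under every alternative in which they were tested. Without the replicate block, which pairs the classes by library, 20 lost it; 237 genes were then lower than in Cd4 single-positive cells, 1 higher and 3 lower in Cd8b1-positive than in Cd8b1-negative members, and 0 higher than in Cd8a single-positive cells. At 2000 UMIs per cell 15 lost the call, and without library 4, which held most members, 14 did. In every case the cause was not tested. Some alternatives could not test every gene. Among the 50, Tyrobp was too low to be tested without dendritic-marked cells, and Cd8b1 was left out of the fit on Cd8b1-negative cells.

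Against Cd4 single-positive cells, 83 genes were higher and 270 lower at 2000 UMIs, 152 were higher with cells holding other-type markers left out, and DESeq2 called 259 lower. Leaving out a library gave 158 to 223 higher and 278 to 404 lower. For Cd8b1-positive members, DESeq2 called 13 lower, no filter on low counts gave 83 higher and 68 lower, leaving out dendritic-marked cells gave 4 higher, 2000 UMIs gave 0 of each (library 3 then held no such cell), and leaving out a library gave 14 to 49 higher and 10 to 28 lower. Against Cd8a single-positive cells, DESeq2 called 1 higher, no filter gave 21 higher and 9 lower, 2000 UMIs gave 1 higher and 2 lower, leaving out dendritic-marked cells gave 0 higher and 2 lower, and leaving out a library gave 2 to 11 higher and 0 to 1 lower.

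No called gene among them changed sign under the alternatives run, but some that were not called did. Bcl11b had 0.052 by library size alone, 0.04 without the replicate block, 0.119 at 2000 UMIs, 0.084 with at least 2 Cd8a UMIs, 0.081 in Cd8b1-negative cells, 0.038 without other-type and 0.036 without dendritic-marked cells, and -0.257 to 0.113 without 1 library. Cbfb had -0.013 with no filter, -0.009 without Trbv1-led cells and -0.102 to 0.087 without 1 library. Klrk1 had 0.135 with at least 2 Cd8a UMIs, 0.244 without Trbv1-led cells and -2.036 to 0.384 without 1 library. At 2000 UMIs Myb had 0.284, Patz1 -0.251 and Serpinb6b -0.005. Without other-type cells Cd69 had 0.014 and Prdm1 0.003, with at least 2 Cd8a UMIs Tcf12 had -0.207, and without 1 library Klf2 had -0.872 to 0.013 and S1pr4 -0.356 to 0.185.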
